A study of Mus musculus with 12 samples.

Results

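The genes described here are 10 transcription factors that work beside SOX and ETS factors in endothelium and in hemogenic endothelium: *Tal1*, *Lyl1*, *Lmo2*, *Gata2*, *Runx1*, *Hhex*, *Mef2c*, *Mecom*, *Bcl6b* and *Nfatc1*. They were chosen by name, with earlier results of these data known, and are 10 of the 35727 genes counted. Bulk RNAseq was done on cardiac fibroblasts of neonatal mice, isolated from pooled hearts on beads carrying a THY1 antibody, with PECAM1-positive cells depleted beforehand where that step was performed. The *Sox17*-*Erg* samples received both factors by retrovirus, and both arms were kept in endothelial growth medium (EGM2). The labels name the control libraries PMX without saying what the control cells were given. Cells were collected on Day 3 and Day 7 and after 4 weeks, which makes 6 groups of 2 libraries. The labels call the control cells fibroblasts and the *Sox17*-*Erg* cells iEC, for induced endothelial cells. Nothing says that the 2 libraries of a group came from separate isolations, so the p-values measure only the spread between these libraries.

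Blood and endothelium arise close together in the embryo, and a hemogenic endothelial cell is an endothelial cell that turns into a blood cell. TAL1 and LYL1 are related basic helix-loop-helix proteins, LMO2 is the adaptor that bridges them to GATA2, and RUNX1 is the factor that blood emergence from endothelium depends on. HHEX is a homeodomain repressor of early endothelial and blood progenitors, MEF2C a MADS box factor of cardiac and vascular development, MECOM (EVI1) a zinc finger factor of blood stem cells and arterial endothelium, BCL6B a zinc finger repressor found mostly in endothelium, and NFATC1 the calcineurin-dependent factor of the endocardium. ETS factors such as ERG bind DNA with a GGAA core, and ERG is known to occupy enhancers together with TAL1, LYL1, LMO2, GATA2 and RUNX1 in blood progenitors.

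The promoters of the members are shown first, because the samples differ by an added ETS factor and an added SOX factor. RefSeq promoters (build GRCm38.p6) were matched to 7 members, with 13 start sites, and the 250 bases before each start were searched on both strands for 4 motifs, and no match found in a member overlapped another. The ETS motif CNGGAAG was found in 26.6% of all 32851 promoters, the SOX motif AACAAT in 9.42%, the GATA motif AGATAA in 9.99% and the RUNX motif TGTGGT in 14.0%. Among the members, the ETS letters occurred once each in the distal promoter of *Runx1*, in the promoter of *Hhex*, in that of *Lyl1* and in 1 of the 2 of *Tal1*, and the GATA letters once, in the other *Tal1* promoter. The SOX and RUNX letters were in none of the 13 windows. A match is only a run of letters and is not evidence of a bound factor. The stretches below are those outside annotated exons for 3 members whose RNA was higher in the *Sox17*-*Erg* samples, 5′ to 3′ on the strand of the gene, with the ETS match in capitals. They are chr16:92826150-92826324 (minus strand) and chr16:92697330-92697579 (minus strand) for the distal and the proximal *Runx1* promoter, chr19:37434657-37434809 (plus strand) for *Hhex* and chr3:30509823-30510009 (minus strand) for the more upstream *Mecom* promoter. The other *Mecom* promoter, whose searched bases lie wholly in annotated exons, is not shown and held no match to the 4 motifs.
Runx1 distal promoter: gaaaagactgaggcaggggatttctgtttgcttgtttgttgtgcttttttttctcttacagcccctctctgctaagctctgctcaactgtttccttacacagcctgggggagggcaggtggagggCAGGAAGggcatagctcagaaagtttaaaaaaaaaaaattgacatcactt
Runx1 proximal promoter: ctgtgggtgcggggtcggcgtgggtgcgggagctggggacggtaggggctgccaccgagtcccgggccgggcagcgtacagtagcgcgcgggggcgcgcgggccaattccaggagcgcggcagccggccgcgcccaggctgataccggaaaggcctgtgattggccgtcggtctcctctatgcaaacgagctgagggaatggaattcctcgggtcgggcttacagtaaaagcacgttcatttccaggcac
Hhex promoter: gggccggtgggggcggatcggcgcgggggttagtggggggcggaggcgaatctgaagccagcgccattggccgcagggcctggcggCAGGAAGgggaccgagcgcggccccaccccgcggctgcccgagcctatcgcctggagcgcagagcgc
Mecom promoter: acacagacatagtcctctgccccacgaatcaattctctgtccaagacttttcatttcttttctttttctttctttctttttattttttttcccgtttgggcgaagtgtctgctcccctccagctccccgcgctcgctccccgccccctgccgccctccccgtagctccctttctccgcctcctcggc
The distal *Runx1* window and the *Hhex* window hold the same 7 letters, CAGGAAG. The proximal *Runx1* window and the printed *Mecom* window hold no match to any of the 4 motifs. Both of these do hold the shorter GGAA core on one strand or the other, so they are not without ETS core letters.

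Library totals ran from 19011635 to 41240449 estimated counts. *Sox17* had at most 9 counts in any control library and 432 to 1036 CPM (counts scaled to a common library size) in the *Sox17*-*Erg* libraries, and *Erg* at most 2.27 CPM against 17.1 to 65.2 CPM, so both arms matched their labels. The fibroblast markers *Thy1* and *Tcf21* were read in every library. *Cdh5*, the endothelial cadherin, was at 14.3 and 8.08 CPM in replicate 2 of the Day 3 and Day 7 control samples, against 0.910 and 0.230 CPM in replicate 1, and *Erg* was also higher in those 2 control libraries. In bulk RNA, a change in the number of cells that express a gene cannot be told apart from a change in RNA per cell.

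All 10 members passed the filter on low counts that left 15506 genes tested. A gene was called when its edgeR quasi-likelihood test had a Benjamini-Hochberg adjusted p under 0.05 over all tested genes. At Day 3, 2 members were called higher in *Sox17*-*Erg* samples, where 7.19% of all tested genes were, and 1 lower, where 5.13% were. At Day 7, 4 members were called higher against 9.48% of all genes, and no member was called lower, by edgeR, by an unadjusted p under 0.05 or by DESeq2, against 7.93%. At 4 weeks, 4 members were again called higher against 11.9%, and again none was lower on any of those 3 counts, against 11.0%. The 4 were *Runx1*, *Hhex*, *Mecom* and *Bcl6b* at both later times. The median log2 fold change of the 10 members was 0.46, 0.08 and 1.08 at the 3 times, beside 0.01, 0.01 and -0.01 over all tested genes.

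**Figure D1:**
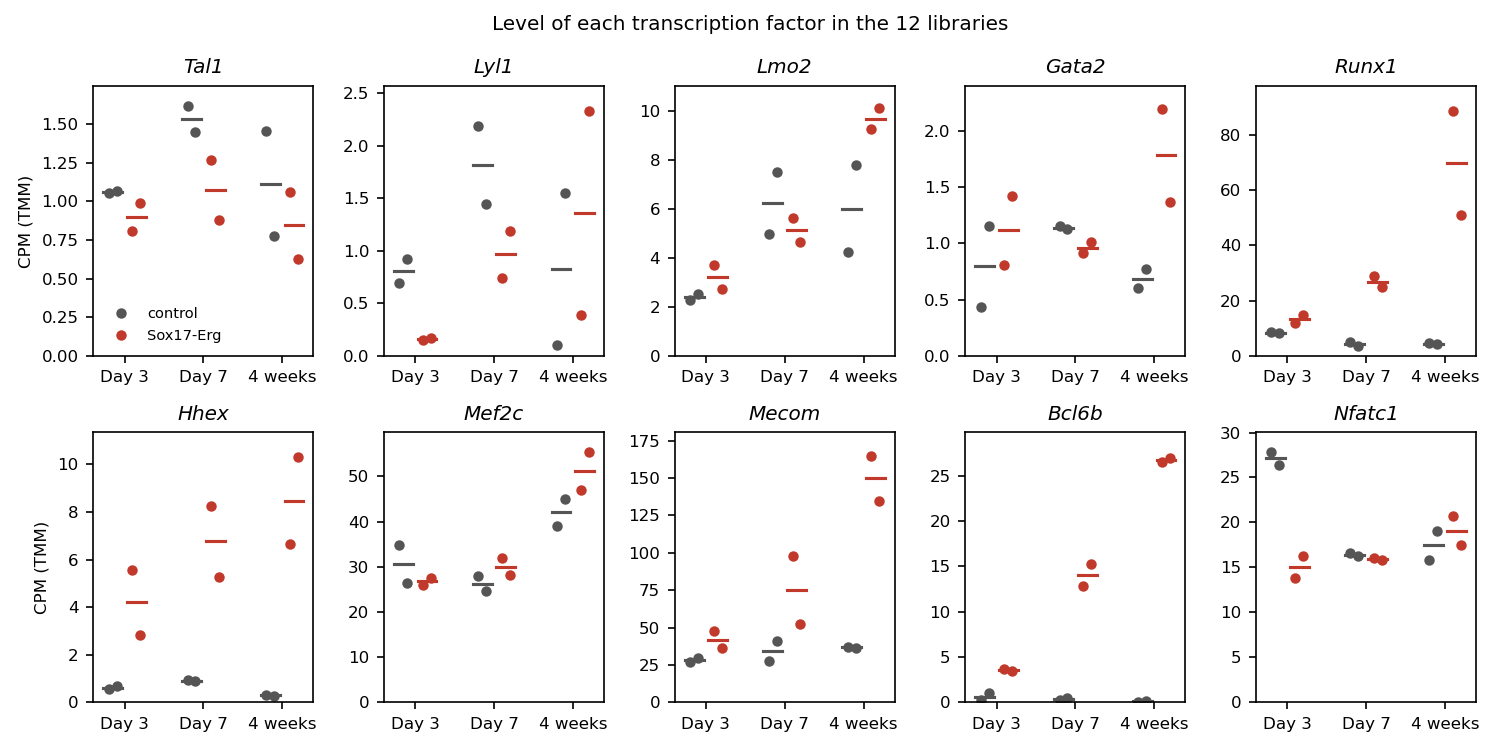
Level of each member (CPM, vertical axis from 0, with a scale of its own in each panel) by time point (horizontal axis), with 1 point per library, a line at the mean of 2, control in grey and *Sox17*-*Erg* in red. *Runx1*, *Hhex*, *Mecom* and *Bcl6b* separate at every time, whereas *Tal1* stays between 0.630 and 1.61 CPM throughout.

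*Runx1* (16:92601466-92826149, minus strand, mm10) was called higher at both later times. In control samples its 2 libraries read 8.66 and 8.23 CPM at the first time point, then 5.03 and 3.50, and finally 4.51 and 4.15 CPM. In *Sox17*-*Erg* samples they read 12.1 and 14.9, then 28.8 and 24.9, then 88.8 and 50.9 CPM. Every *Sox17*-*Erg* library lay above both control libraries of its time, and the gap between the arms widened at each time. The Day 3 difference did not pass (log2 fold change 0.68 ± 0.26 SE, adjusted p = 0.12), although it passed with the replicate number as a block within time points (0.67, adjusted p = 0.044). At Day 7 *Runx1* was 6.29-fold higher (2.65 ± 0.28, adjusted p = 0.00045) and at 4 weeks 16.1-fold higher (4.01 ± 0.29, adjusted p = 3.3e-05), and both calls held with each of the 12 libraries left out in turn. The gene shares exon sequence with an antisense gene that is not among the counted genes. The library kit kept strand.

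*Tal1*, *Lyl1*, *Lmo2* and *Gata2*, which encode the complex that RUNX1 works with in blood progenitors, passed the test at no time point. *Tal1* (4:115056426-115071755, plus strand) read 1.06 and 1.06, 1.61 and 1.45, and 1.45 and 0.773 CPM in control samples, and 0.810 and 0.991, 1.27 and 0.879, and 1.06 and 0.630 CPM in *Sox17*-*Erg* samples. The *Sox17*-*Erg* libraries were the lower ones at Day 3 and Day 7 and overlapped control at 4 weeks. Its log2 fold changes were -0.23 ± 0.43, -0.50 ± 0.42 and -0.41 ± 0.42, with adjusted p from 0.44 to 0.76, which does not show that the arms were equal. In each of the 6 same-numbered pairs of libraries the *Sox17*-*Erg* library was the lower one.

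*Gata2* (6:88193891-88207032, plus strand), the zinc finger factor of the complex, read 0.437 and 1.16, 1.15 and 1.13, and 0.601 and 0.773 CPM in control samples. In *Sox17*-*Erg* samples it read 0.810 and 1.42, 0.910 and 1.01, and 2.19 and 1.37 CPM. Only at 4 weeks were both *Sox17*-*Erg* libraries above both controls, with a fold of 2.6 that did not pass (log2 1.38 ± 0.50, adjusted p = 0.078) but passed with the block within time points (1.36, adjusted p = 0.046). *Lmo2* (2:103957986-103981878, plus strand), the adaptor, read 2.29 and 2.54, 4.99 and 7.52, and 4.24 and 7.81 CPM in control and 3.69 and 2.72, 5.62 and 4.66, and 9.27 and 10.1 CPM in *Sox17*-*Erg* samples. Its libraries lay above control at Day 3 and 4 weeks and overlapped at Day 7. Its largest difference was at 4 weeks (log2 0.69 ± 0.31, adjusted p = 0.15), and without control 4 weeks replicate 2 this became 1.20 and passed (adjusted p = 0.037).

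*Lyl1* (8:84701457-84704715, plus strand) varied more between replicates than between arms at 4 weeks. Control libraries started at 0.691 and 0.925 CPM, reached 2.19 and 1.45 by Day 7, and ended at 0.100 and 1.55, the last pair being 4 and 38 counts. *Sox17*-*Erg* libraries started at 0.152 and 0.172 CPM (3 and 4 counts), reached 0.744 and 1.19 by Day 7, and ended at 0.389 and 2.33 (11 and 63 counts). The Day 3 and Day 7 libraries of the *Sox17*-*Erg* arm were all below control, yet the tests gave -2.28 ± 1.26 (adjusted p = 0.26) and -0.93 ± 1.01 (adjusted p = 0.57). With the block within time points the Day 3 difference passed (-2.28, adjusted p = 0.042), and with Day 3 fitted alone its adjusted p was 0.046. Macrophages express *Lyl1*, and the summed CPM of all 10 macrophage markers was 47.8 and 432 in the control pair and 69.7 and 347 in the *Sox17*-*Erg* pair at 4 weeks, low in replicate 1 and high in replicate 2 of both arms, as *Lyl1* was. At Day 3 the sums were 454 and 295 in control and 307 and 333 in *Sox17*-*Erg* samples, and at Day 7 they were 915 and 1316 against 282 and 455. In control the replicate with the higher sum had the lower *Lyl1* at both of these times. In *Sox17*-*Erg* samples it had the higher *Lyl1*. At Day 3 the sums of the arms were close, while *Lyl1* was lower in the *Sox17*-*Erg* libraries. *Csf1r* and *C1qa* were above 0 in every library, and the part of these cells in the *Lyl1* values was not tested. *Lyl1* exons overlap *Nfix* on the opposite strand.

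**Figure D2:**
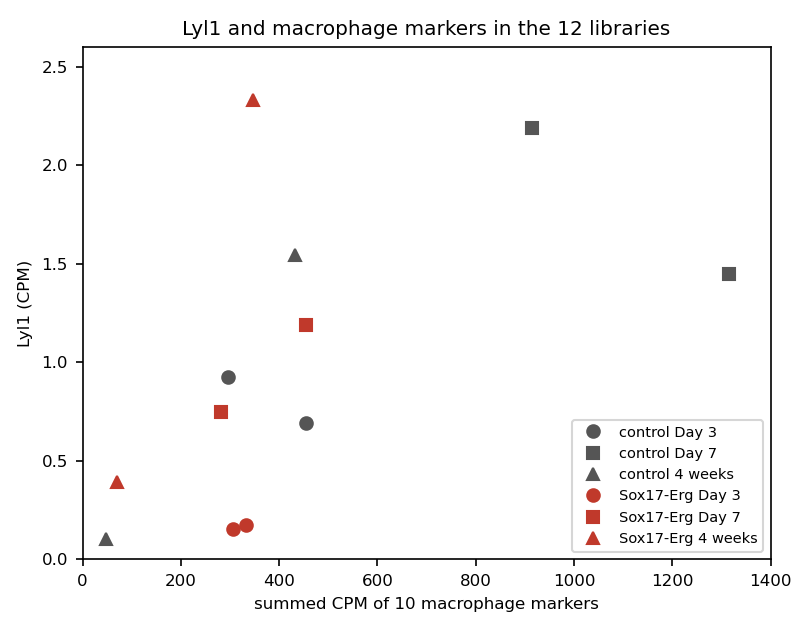
*Lyl1* level (CPM, vertical axis) against the summed level of 10 macrophage markers (CPM, horizontal axis), 1 point per library, with control in grey, *Sox17*-*Erg* in red and the time point given by the marker shape. The 4 week libraries form a low pair and a high pair that each hold 1 control and 1 *Sox17*-*Erg* library.

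Of the endothelial members, *Bcl6b* (11:70224128-70229798, minus strand) had the largest fold of the 10 at Day 7 and at 4 weeks. In control samples it began at 0.218 and 1.02 CPM (6 and 22 counts), then read 0.307 and 0.442, and ended at 0.0752 and 0.163 (3 and 4 counts). In *Sox17*-*Erg* samples it read 3.69 and 3.45, then 12.8 and 15.3, then 26.5 and 27.0 CPM. No *Sox17*-*Erg* library overlapped a control library of its time, and the control library with the most *Bcl6b*, Day 3 replicate 2, was the one with the most *Cdh5*. The log2 fold changes were 2.58 ± 0.48 (5.99-fold, adjusted p = 0.013), 5.21 ± 0.51 (37.0-fold, adjusted p = 0.00034) and 7.86 ± 0.59 (233-fold, adjusted p = 4.5e-05). Since the 4 week control level rests on 7 counts in all, the ratio of the summed counts (1477 and 7), each divided by its summed library size, is given with its exact 95% interval: 246-fold, with bounds of 119 and 614 that cover counting error only. The Day 3 value rested on the control libraries, at 1.81 without control Day 3 replicate 1 and 3.97 without replicate 2. Its call was lost without *Sox17*-*Erg* Day 3 replicate 1 (adjusted p = 0.09) and with Day 3 fitted alone (0.063), and the later calls held in all 12 leave-one-out fits.

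*Hhex* (19:37434810-37440731, plus strand) was higher at every time. Its control libraries read 0.546 and 0.694, 0.922 and 0.884, and 0.326 and 0.285 CPM, and its *Sox17*-*Erg* libraries 5.57 and 2.84, 8.27 and 5.27, and 6.65 and 10.3 CPM. The lowest *Sox17*-*Erg* library was still above the highest control library of the whole series. The differences were 6.76-fold (log2 2.76 ± 0.42, adjusted p = 0.0058), 7.49-fold (2.90 ± 0.40, adjusted p = 0.0018) and 27.1-fold (4.76 ± 0.45, adjusted p = 0.00015). Without control Day 3 replicate 1 the first did not pass (adjusted p = 0.061), and without *Sox17*-*Erg* Day 3 replicate 1 it was 2.16 on the log2 scale (adjusted p = 0.04).

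*Mecom* (3:29951296-30548008, minus strand) was already well expressed in control samples, with 26.9 and 29.9 CPM on Day 3, then 27.8 and 40.9, then 37.2 and 36.4. *Sox17*-*Erg* samples read 48.0 and 36.2, 98.0 and 52.5, and 165 and 134.5 CPM. The arms did not overlap at any time, but the 2 *Sox17*-*Erg* libraries of Day 7 stood far apart. *Mecom* was 2.19-fold higher at Day 7 (log2 1.13 ± 0.29, adjusted p = 0.028) and 4.07-fold higher at 4 weeks (2.03 ± 0.29, adjusted p = 0.0015), after 0.57 ± 0.29 at Day 3 (adjusted p = 0.22). The Day 7 call was lost without control Day 7 replicate 1 (0.86, adjusted p = 0.13), without *Sox17*-*Erg* Day 7 replicate 1 (0.61, adjusted p = 0.22) and with Day 7 fitted alone (adjusted p = 0.13), whereas the 4 week call held in all 12 leave-one-out fits. An antisense gene that overlaps its exons is not among the counted genes.

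*Nfatc1* (18:80606205-80713071, minus strand), the endocardial factor, was the only member called lower. At Day 3 it read 27.9 and 26.4 CPM in control and 13.8 and 16.3 CPM in *Sox17*-*Erg* samples, a fold of 0.555 (log2 -0.85 ± 0.14, adjusted p = 0.0083). By Day 7 control had come down to 16.6 and 16.3 CPM beside 16.1 and 15.9, and at 4 weeks the values were 15.8 and 19.1 beside 20.7 and 17.5. The later differences did not pass (-0.04 ± 0.14, adjusted p = 0.87, and 0.13 ± 0.14, adjusted p = 0.55). The Day 3 call was lost without control Day 3 replicate 1 (adjusted p = 0.064) and without *Sox17*-*Erg* Day 3 replicate 1 (0.086).

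*Mef2c* (13:83504034-83667080, plus strand) differed little between arms. It read 34.8 and 26.5, 27.9 and 24.6, and 39.1 and 45.1 CPM in control, and 26.1 and 27.6, 31.9 and 28.1, and 46.9 and 55.3 CPM in *Sox17*-*Erg* samples. The libraries overlapped at Day 3 and lay just above control at the later times. Its log2 fold changes of -0.19, 0.20 and 0.28 did not pass (adjusted p from 0.23 to 0.46).

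**Figure D3:**
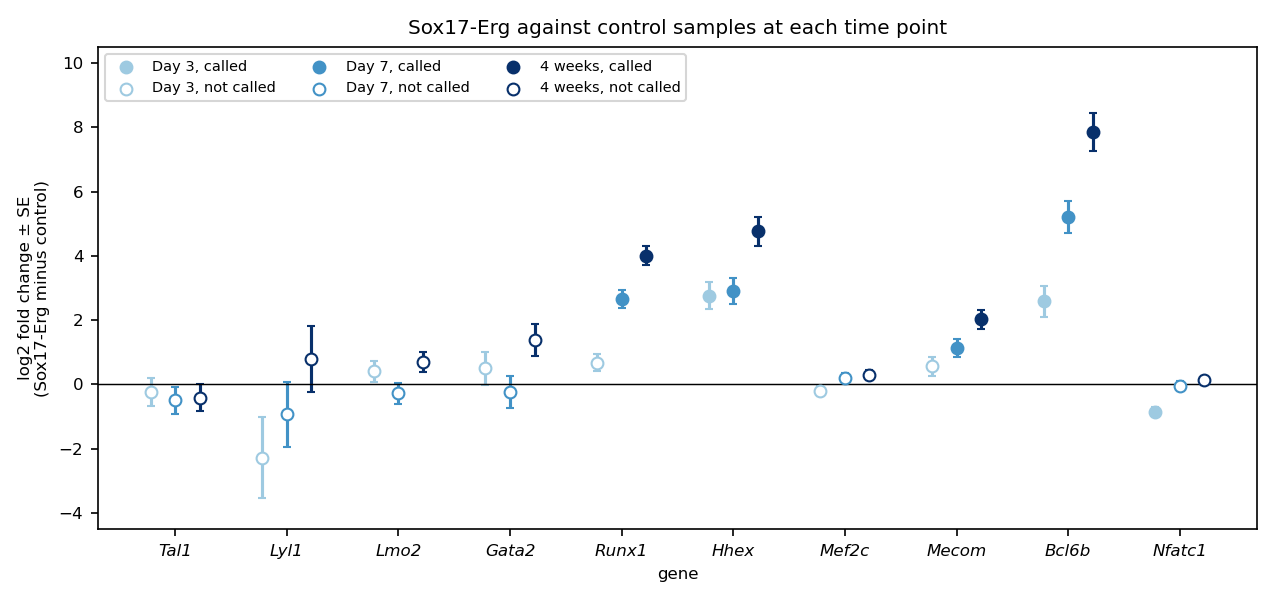
Log2 fold change of each member, *Sox17*-*Erg* minus control, at Day 3, Day 7 and 4 weeks, with bars of 1 SE from the edgeR fit, 2 libraries per group and filled points for called genes. *Bcl6b*, *Hhex*, *Runx1* and *Mecom* lie furthest above 0 at 4 weeks (7.86, 4.76, 4.01 and 2.03), and *Nfatc1* is below 0 at Day 3 (-0.85).

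Because a permutation of 2 libraries against 2 cannot reach 0.05 at one time point, each member was also tested over the 3 times together by an exact two-sided permutation of labels within time points, for which the smallest possible p is 0.0093. *Runx1*, *Hhex*, *Mecom* and *Bcl6b* gave this smallest exact p, a value that the lack of overlap at every time already fixes, so it adds nothing to that observation. For the other members the exact permutation p was 0.093 for *Tal1*, 0.15 for *Gata2*, 0.23 for *Nfatc1*, 0.27 for *Lmo2*, and 0.38 for both *Mef2c* and *Lyl1*. With labels exchanged only within the 6 same-numbered pairs, a variant chosen after seeing the data, the smallest possible p was 0.031. A sign shared by all 6 pairs fixes that value, as for *Runx1*, *Hhex*, *Mecom* and *Bcl6b*, higher in 6 of 6 pairs, and for *Tal1*, lower in 6 of 6 pairs by a mean of -0.26 on the log2 scale (exact p = 0.031). The other 5 members had exact p from 0.19 to 0.38. These p-values were not adjusted for the 10 members tested and are not calls.

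The change from Day 3 to 4 weeks was then taken within each arm. In *Sox17*-*Erg* samples 5 members were called higher, where 15.1% of all tested genes were, and none was lower by edgeR, by an unadjusted p under 0.05 or by DESeq2, where 15.6% of all genes were. *Runx1* rose 5.18-fold (log2 2.37 ± 0.27, adjusted p = 0.00069), *Bcl6b* by 2.90 ± 0.42 on the log2 scale (adjusted p = 0.0018) and *Mecom* by 1.83 ± 0.29 (adjusted p = 0.0028). *Mef2c* rose 1.91-fold (adjusted p = 0.0036) and *Lmo2* 3.03-fold (adjusted p = 0.0074), the latter lost without *Sox17*-*Erg* Day 3 replicate 2 (adjusted p = 0.051). *Hhex*, already high at Day 3, gave 1.01 ± 0.36 (adjusted p = 0.062). With single libraries left out it ran from 0.61 to 1.63, and it passed in 1 of 5 alternative fits to all libraries.

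In control samples over the same interval 1 member was called higher, against 13.9% of all genes, and 3 lower, against 12.6%. *Lmo2* rose 2.48-fold (log2 1.31 ± 0.33, adjusted p = 0.019), so it rose with time in both arms. The members that fell were *Nfatc1* (0.642-fold, adjusted p = 0.011), *Runx1* (0.514-fold, adjusted p = 0.029) and *Bcl6b* (-2.38 ± 0.69, adjusted p = 0.033). These 4 calls were less firm, holding in 9, 10, 8 and 6 of the 12 leave-one-out fits for *Lmo2*, *Nfatc1*, *Runx1* and *Bcl6b*. Without control Day 3 replicate 2, the library with the most *Cdh5* in the control arm, the *Bcl6b* change was -0.97 (adjusted p = 0.4).

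The *Sox17*-*Erg* effect differed between Day 3 and 4 weeks for 3 members, all in the higher direction, where 2.22% of all tested genes were called higher by this interaction test and 0.987% lower. The difference of effects was 5.28 ± 0.79 for *Bcl6b* (adjusted p = 0.01), 3.33 ± 0.38 for *Runx1* (adjusted p = 0.0041) and 0.98 ± 0.20 for *Nfatc1* (adjusted p = 0.034). For *Nfatc1* this came from a negative effect at Day 3 that was near 0 at 4 weeks. *Runx1* held in all 12 leave-one-out fits, *Nfatc1* in 5 of them (0.85 to 1.17), and *Bcl6b* ranged from 3.93 (without control Day 3 replicate 2, adjusted p = 0.029) to 6.06 (without control Day 3 replicate 1), its call being lost without control 4 weeks replicate 1 (4.73, adjusted p = 0.054). *Hhex* (2.0 ± 0.60, adjusted p = 0.12) and *Mecom* (1.46 ± 0.41, adjusted p = 0.1) did not pass. The comparisons at 4 weeks, over time and of effects share libraries and are not independent of each other.

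**Figure D4:**
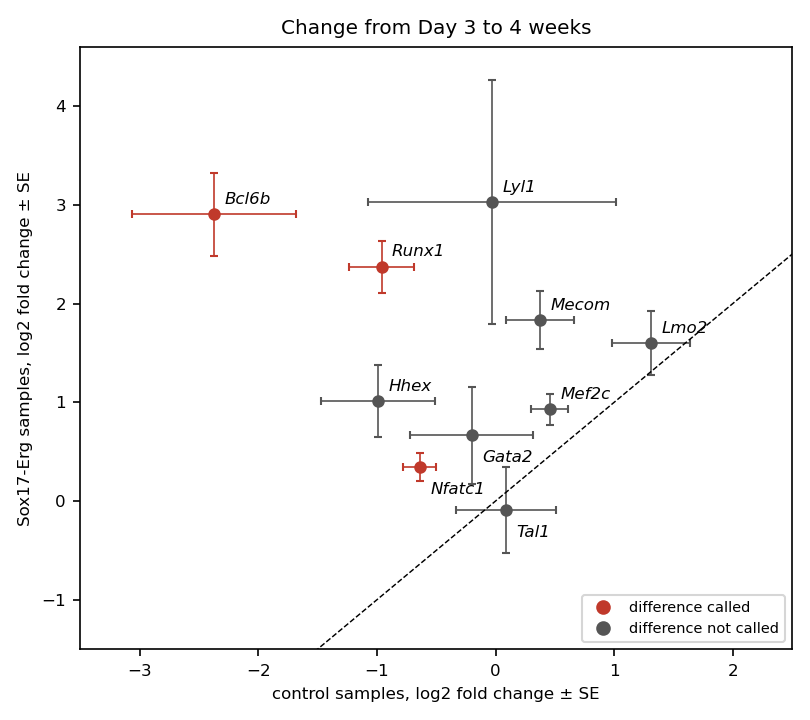
Log2 change of each member from Day 3 to 4 weeks in control samples (horizontal axis) and in *Sox17*-*Erg* samples (vertical axis), with bars of 1 SE from the edgeR fit, red points where the difference between both changes was called and a dashed line of equal change. *Runx1* and *Bcl6b* are below 0 in control (-0.96 and -2.38) and above 0 in *Sox17*-*Erg* samples (2.37 and 2.90).

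Levels of different genes were compared per length, as TPM, counts divided by the length of the union of exons and scaled to the same total in each library. At 4 weeks in *Sox17*-*Erg* samples *Mecom* was highest at 40.6 ± 3.05 TPM (SD, n = 2), followed by *Bcl6b* at 24.4 ± 2.03, *Runx1* at 19.4 ± 6.17 and *Lmo2* at 15.2 ± 1.98. The *Runx1* libraries (15.04 to 23.8 TPM) overlapped those of *Bcl6b* (22.9 to 25.8) and *Lmo2* (13.8 to 16.6), so these neighbours were not separated. *Mef2c* (11.1 ± 2.04), *Nfatc1* (8.61 ± 0.446) and *Hhex* (5.74 ± 2.12) came next. *Lyl1* (2.65 ± 2.76), *Gata2* (1.11 ± 0.288) and *Tal1* (0.646 ± 0.191) had the lowest means. The *Lyl1* libraries (0.6965 and 4.605 TPM) overlapped those of *Gata2* and *Tal1* and also those of *Hhex* (4.24 and 7.23), so *Lyl1* has no firm place. In 4 week control samples *Mecom* (9.80), *Lmo2* (9.27), *Mef2c* (8.88) and *Nfatc1* (7.76) were the highest, and *Bcl6b* (0.107) was last. The *Lmo2* libraries (6.34 and 12.2 TPM) spanned those of the other 3, so *Lmo2* has no firm place among them. Those of *Mef2c* (8.06 and 9.70) and *Nfatc1* (6.87 and 8.64) overlapped and were not separated either. With the length of the longest transcript in place of the exon union, *Mecom* (70.7 TPM) stayed first in *Sox17*-*Erg* samples and *Bcl6b* (21.4) moved behind *Runx1* (31.8) and *Mef2c* (22.04). In control samples *Mef2c* (17.5) then came before *Mecom* (16.8), *Nfatc1* (9.49) and *Lmo2* (9.25).

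Counts in the lists of other genes are to be read against the shares over all tested genes. These were 7.19% higher and 5.13% lower at Day 3, and 9.48% higher and 7.93% lower at Day 7. At 4 weeks they were 11.9% higher and 11.0% lower. A list count near the share of its time is no result about the list. Proteins that bind the *Tal1*-*Lmo2*-*Gata2*-*Runx1* complexes made up a list of 10 genes, all tested. Of these 3 were called higher at each time, and 1 lower at 4 weeks, but 0 were called at Day 3 without either control library of that time or without *Sox17*-*Erg* Day 3 replicate 1. *Tcf3* and *Tcf4*, which encode the E proteins that pair with TAL1 and LYL1, were higher by 1.12 ± 0.12 (adjusted p = 0.00033) and 1.34 ± 0.18 (adjusted p = 0.0011) on the log2 scale at 4 weeks. *Cbfa2t3* (ETO2), a corepressor of the TAL1 complex, read 0.902 and 0.407 CPM in 4 week control and 9.91 and 9.89 CPM in *Sox17*-*Erg* samples (3.86 ± 0.66, adjusted p = 0.0034), with 4.59 without control 4 weeks replicate 1 and 3.46 without replicate 2. *Ssbp2*, which stabilises the LDB1 adaptor, was 0.561-fold (adjusted p = 0.0081), a call lost without control 4 weeks replicate 1 (adjusted p = 0.06). The list's median log2 fold change at 4 weeks was 0.30, beside -0.01 over all genes.

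Among the 18 paralogs of the members 14 were tested, and 5 were called higher and 2 lower at 4 weeks, the lower count being near the share over all genes. With single libraries left out these counts were 2 to 4 higher and 1 to 2 lower, both fewest without *Sox17*-*Erg* 4 weeks replicate 1. *Runx2*, the bone-forming relative of *Runx1*, was 2.49-fold higher at Day 7 (adjusted p = 0.00034) and 2.39-fold at 4 weeks (adjusted p = 0.00022), and *Nfatc4* 2.69-fold at 4 weeks (adjusted p = 0.0013). Of the cardiac GATA factors, 2 were called lower at 4 weeks, *Gata6* at 0.447-fold (adjusted p = 0.0018) and *Gata5* at 0.151-fold (adjusted p = 0.0073), the *Gata5* call being lost without *Sox17*-*Erg* 4 weeks replicate 1 (adjusted p = 0.065). The other one, *Gata4*, was not called (log2 0.07 ± 0.17, adjusted p = 0.82). Of 15 inhibitors and activators of the members, all tested, 5 were higher and 2 lower at 4 weeks, and 4 and 0 without *Sox17*-*Erg* 4 weeks replicate 1. *Id4*, an inhibitor of E protein pairing, was 10.4-fold higher at 4 weeks (adjusted p = 0.00012), while its relative *Id2* was lower at Day 7 (0.525-fold, adjusted p = 0.014, 10 of 12 leave-one-out fits) and at 4 weeks (0.629-fold, adjusted p = 0.04, 6 of 12). *Hdac9* (12.3-fold, adjusted p = 0.00035) and *Hdac7* (1.53-fold, adjusted p = 0.0026), class IIa deacetylases that repress MEF2 factors, were higher at 4 weeks. The *Hdac9* difference was 3.14 on the log2 scale without control 4 weeks replicate 1 and 4.24 without replicate 2. *Rcan2*, a calcineurin inhibitor in the NFAT pathway, was called lower at all 3 times. Its ratio to control was lowest at Day 7 (0.265-fold, adjusted p = 0.0015). Its relative *Rcan1* was higher at Day 7 (2.96-fold, adjusted p = 0.0028) and at 4 weeks (2.86-fold, adjusted p = 0.002). *Gata4*, *Id2* and *Rcan1* were named after their values were seen.

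Of 15 hemogenic and blood stem cell genes other than the members, 10 were tested, with 2 called higher beside 2 lower on Day 3, 1 higher beside 4 lower on Day 7, and 2 higher beside 3 lower at the end. Without *Sox17*-*Erg* Day 3 replicate 1 both Day 3 counts were 0, and the higher count was also 0 without either Day 3 control library. Without control 4 weeks replicate 1 or either *Sox17*-*Erg* 4 weeks library 2 were lower at 4 weeks. *Spn* (CD43), a surface sialoglycoprotein of emerging blood cells, read 0.125 and 0.122 CPM (5 and 3 counts) in 4 week control and 6.76 and 8.56 CPM in *Sox17*-*Erg* samples, and was called higher at all 3 times (5.90 ± 0.54 at 4 weeks, adjusted p = 0.00012). Its Day 3 call was among those lost (adjusted p up to 0.16). *Adgrg1* (GPR56) was 15.3-fold higher at 4 weeks (adjusted p = 3e-04), while *Procr* (EPCR) and *Hlf*, both markers of blood stem cells, were lower at 0.256-fold (adjusted p = 0.00067) and 0.191-fold (adjusted p = 0.003). For *Hlf* the log2 difference was -1.94 without *Sox17*-*Erg* 4 weeks replicate 1 and -3.09 without replicate 2. The other gene called lower at 4 weeks, *Cd34*, read 351 and 241 CPM in control and 107 and 97.9 CPM in *Sox17*-*Erg* samples. Its log2 difference there ran from -1.77 to -1.23 with single libraries left out. *Cd34* was also called lower at Day 3 and Day 7, and was named after its values were seen. *Ptprc* (CD45), the pan-blood surface phosphatase, ranged from 9 to 150 counts and was at 9 and 32 counts in control and 19 and 47 in *Sox17*-*Erg* samples at 4 weeks. *Itga2b* (CD41) stayed between 0.691 and 2.07 CPM and *Kit* between 0.0768 and 2.71 CPM. The genes called went in both directions, and edgeR called neither *Ptprc* (adjusted p from 0.16 to 0.7) nor *Kit* (0.093 to 0.72) at any of the 3 times. DESeq2 called *Kit* higher at 4 weeks (log2 2.72 ± 1.09, adjusted p = 0.049), where control had 5 and 2 counts and *Sox17*-*Erg* samples 16 and 22.

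Cell type markers give the setting of these values. Of 9 endothelial markers tested, 5 were called higher and 1 lower at 4 weeks, and of 10 fibroblast markers 1 was higher and 4 lower. The lower endothelial marker, *Eng*, was called in 2 of 12 leave-one-out fits, and without either *Sox17*-*Erg* 4 weeks library 1 fibroblast marker was lower. All 10 macrophage markers were tested and 0 were called in either direction at any of the 3 times by edgeR, by an unadjusted p under 0.05 or by DESeq2, although leaving out single libraries gave up to 1 lower at Day 7 and up to 2 higher at 4 weeks. Smooth muscle and pericyte markers were higher in 4 of 8 and lower in 1 at 4 weeks, with *Myh11* at 55.9 and 35.3 CPM in control and 278 and 223 CPM in *Sox17*-*Erg* samples. The lower one, *Kcnj8*, was called in 1 of 12 leave-one-out fits, and DESeq2 called 5 higher and 0 lower. Of the 10 cardiomyocyte markers 7 were lower, and 3 without *Sox17*-*Erg* 4 weeks replicate 1. Lymphatic markers were higher in 2 of 6, among them *Prox1* (0.877 and 1.46 against 38.4 and 25.0 CPM), and the other 4 were not called at 4 weeks. *Pdpn*, in the same list, was lower at Day 3 (0.536-fold, adjusted p = 0.02) and Day 7 (0.595-fold, adjusted p = 0.028), each in 8 of 12 leave-one-out fits. Endocardial and valve markers were higher in 1 and lower in 2 of 6, with 1 lower without control 4 weeks replicate 1 or *Sox17*-*Erg* 4 weeks replicate 2. Few mast cell (2 of 8), megakaryocyte (3 of 7) and erythroid markers (2 of 8) passed the filter, and *Cpa3* and *Hba-a1* had at most 6 counts in any library. At 4 weeks 1 erythroid marker was lower, and at Day 7 both tested erythroid markers and 1 mast cell marker were. The mast cell marker, *Hdc*, was called in 1 of 12 leave-one-out fits, and the erythroid marker *Epor* in 10, the exceptions being those without control Day 7 replicate 2 or *Sox17*-*Erg* Day 7 replicate 1. These markers were named after their values were seen. Of the 3 megakaryocyte markers edgeR called 0 at any of the 3 times, with 1 lower at an unadjusted p under 0.05 at Day 3 and 1 at Day 7, the latter also by DESeq2.

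For each member the 3 tested genes with the most similar pattern were found, by the root mean square difference of centred log2 CPM over the 6 group means, as a description only. *Ahr* (0.21), *Tspan15* (0.26) and *Prtg* (0.29) were nearest to *Runx1*, and *Foxo1* (0.12), *Ppp1r3f* (0.14) and *Pmepa1* (0.14) to *Mecom*. *Lama3* (0.28), *Efna3* (0.30) and *Tspan18* (0.31) were nearest to *Hhex*, and *Magix* (0.40), *Ramp3* (0.42) and *Rapgef4* (0.44) to *Bcl6b*, whose own group means spanned 7.15 on this scale. *Tap1* (0.08) was nearest to *Tal1*, *Pamr1* (0.29) to *Lyl1*, *Snx31* (0.18) to *Lmo2*, *Olfr656* (0.16) to *Gata2*, *Gm47356* (0.10) to *Mef2c* and *Gm11189* (0.08) to *Nfatc1*.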

How the data were processed

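Bulk RNAseq was analysed from 12 libraries in 6 groups, grouped by the labels. The authors made stranded mRNA libraries, demultiplexed with bcl2fastq 2.20.0 per the labels, trimmed high GC content with BBDuk and quantified with Salmon against mm10; the Salmon version is not given in the sources used here. The deposited values are estimated counts per gene, which were rounded to whole numbers. Counts were fitted with edgeR 4.0.16 in R 4.3.3 (quasi-likelihood test, TMM, filterByExpr with a minimum count of 10 and minimum total of 15, 1 mean per group) over 15506 genes, with Benjamini-Hochberg adjustment and a threshold of 0.05. CPM used TMM library sizes. The SE of an edgeR log2 fold change was derived from the test, as the absolute fold change divided by the square root of its F. The permutation test used log2(CPM + 0.5). The fit was tested on simulated data, where most of the smaller changes were missed; the first criterion, on changes of all sizes, was not met and was replaced by one on the largest changes. A gene that did not pass may therefore still differ. DESeq2 1.42.0, other filters and scalings, the replicate block and leaving out each library were alternatives.

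The members and gene lists were chosen with earlier results of these data known. All 10 members were named, and from each other list up to 4 called genes with the smallest adjusted p, defining genes of cell types, and the 3 genes nearest to each member in pattern. Same-numbered libraries of the 2 arms deviated together weakly within time points (correlations of 0.186, 0.301 and 0.171). Between Day 3 and 4 weeks the correlations were -0.104 in control and -0.049 in *Sox17*-*Erg* samples. The labels give no pairing, and so few correlations cannot settle whether the numbers pair samples.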

Additional observations from a re-analysis of the deposited data

Results flagged for a closer look

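The *Sox17*-*Erg* effect at 4 weeks differed from that at Day 3, by the interaction test of the edgeR fit, for 3 members. The difference of log2 effects was 5.279 for *Bcl6b* (adjusted p = 0.01), 3.333 for *Runx1* (adjusted p = 0.0041) and 0.98 for *Nfatc1* (adjusted p = 0.034). Groups of 2 libraries are too small for the test of single outlying samples.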

How the results depend on the processing

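Of the 60 results of the members, all kept direction and call with DESeq2 size factors and with a replicate block over all libraries, as did the 48 that could be tested when at least 50 counts in 2 libraries were required. With DESeq2, 56 were the same, 3 newly passed (*Lyl1* over time in *Sox17*-*Erg*, *Mef2c* over time in control, the *Mecom* interaction) and *Lyl1* over time in control turned to 0.009. Without a filter 6 newly passed. A further alternative took the replicate number as a block within each time point, where the numbers may or may not pair the samples. There 3 of 40 newly passed (*Runx1* and *Lyl1* at Day 3, *Gata2* at 4 weeks) and no other call changed. This block was not applied to changes over time, whose libraries lie in different blocks. With labels of the permutation test exchanged only within pairs, *Tal1* (-0.261) had the smallest p this variant allows, 0.031, unadjusted and fixed by its 6 lower pairs, and no other member moved across 0.05. Members called lower at Day 3 were 2 with this block and 2 with each time point fitted alone, where 1 was higher. Members higher over time in control were 2 by DESeq2 and without a filter, and 5 had a higher interaction without a filter.

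With each library left out in turn, directions changed for *Gata2* at Day 3 (-0.044 to 1.315) and over time in control (-0.755 to 0.625), *Lmo2* at Day 7 (-0.57 to 0.045) and in the interaction (-0.093 to 0.838), *Lyl1* at 4 weeks (-1.032 to 3.704) and over time in control (-2.943 to 0.939), *Mef2c* at Day 3 (-0.41 to 0.02), *Nfatc1* at 4 weeks (-0.007 to 0.278), and *Tal1* at 4 weeks (-0.838 to 0.131), over time in *Sox17*-*Erg* (-0.469 to 0.234), over time in control (-0.451 to 0.461) and in the interaction (-0.568 to 0.362). None of these was called with all libraries in. Counts of called members ranged from 1 to 2 (higher) and 0 to 1 (lower) at Day 3, 0 to 1 (higher) and 0 to 3 (lower) over time in control, and 1 to 4 for a higher interaction. The cause was not tested.

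Over all genes, 1115 were called higher and 795 lower at Day 3, against 1973 and 1619 with the block within time points, and 1272 (DESeq2) and 1333 (no filter) lower. At Day 7 the 1470 higher and 1230 lower became 609 and 479 with that time alone, and 2065 lower with the block. The interaction gave 345 and 153, against 682 and 360 by DESeq2, 732 and 447 without a filter, and 638 and 430 with the block. Leaving out a library took the counts down to 201 and 66 at Day 3, 623 and 297 at Day 7, 1049 and 648 at 4 weeks, and 127 and 44 for the interaction. With 2 libraries per group, changes in members under 1 CPM may have been missed, and the smallest change that could pass was not worked out.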
